A study of Mus musculus with 12 samples.

Results

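Th2 cells are the helper T cells that direct allergic inflammation through cytokines such as IL-4, IL-5 and IL-13. In mouse Th2 cells, 2772 autosomal regions of open chromatin were called in each of 3 WT libraries and in none of 3 cKO-labelled libraries, out of 114463 regions in the whole series. They were selected on the peak calls of the 6 deposited ATAC-seq lists: peaks sharing at least 1 bp were merged, and an autosomal merged region was kept if it held a peak of every WT list and of no cKO-labelled list. They are called WT-only regions here, and the 309 autosomal regions with the reverse pattern cKO-only regions. The groups were 3 cKO-labelled and 3 WT RNA-seq libraries and 3 cKO-labelled and 3 WT ATAC-seq libraries, 12 in all. The labels give the cells as Th2 cells of genotype cKO, a conditional knockout, or WT, and the series title names NRF2, the antioxidant transcription factor encoded by Nfe2l2. They do not give the deleted gene, the Cre driver, the strain, sex or age of the mice, whether mice were pooled, or the tissue and stimulation behind these libraries. Nor do they say whether libraries of a group came from separate animals, so p-values measure only the spread between libraries. Nfe2l2 RNA was 452.8, 326.4 and 391.5 normalized counts in the cKO-labelled libraries, against 169.9, 155.3 and 147.4 in the WT libraries, so the group name follows the label throughout.

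ATAC-seq reads where a transposase can cut DNA, which is where nucleosomes are missing or loosely held. In T cells such sites are the start sites of active genes, which are open in most cell types, and enhancers further away, which differ more between cell types and states and are bound by factors of the AP-1, RUNX, ETS and GATA families. NRF2 binds an antioxidant response element, whose core resembles the AP-1 site.

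Few WT-only regions lay over a start site. Among the 2645 WT-only regions on autosomes with promoter sequences used here, 42 (1.59%, exact 95% binomial interval 1.15% to 2.14%) overlapped a window of 250 bases before to 50 bases after an annotated start. The share was 9.57% for cKO-only regions and 30.87% for regions called in all 6 lists. Low shares at starts were not particular to WT-only regions. By another measure, within 1 kb of a protein-coding start and of no downstream end, lay 1.02% of WT-only regions. By that measure the share was 1.69% for regions of 1 WT list alone and 2.06% for those of 1 cKO-labelled list alone. The 42 regions covered or touched 45 windows of 42 genes, 21 of them protein-coding. The 5 windows below were chosen after values were seen, as the protein-coding windows lying whole within the tallest such regions, with 1 uncharacterized gene left out. They are RefSeq sequences of build GRCm38.p6, 5′ to 3′ on the gene's strand, with capitals marking matches on either strand to 1 of 5 searched motifs. The antioxidant response element core was searched as TGACNNNGC. The AP-1 site was searched as TGANTCA and may overlap that core. Sites of the GATA family were searched as AGATAA, those of the RUNX family as TGTGGT and those of the ETS family as CCGGAA.
Psap (prosaposin, a lysosomal protein; an internal start, chr10:60284211-60284510, plus strand): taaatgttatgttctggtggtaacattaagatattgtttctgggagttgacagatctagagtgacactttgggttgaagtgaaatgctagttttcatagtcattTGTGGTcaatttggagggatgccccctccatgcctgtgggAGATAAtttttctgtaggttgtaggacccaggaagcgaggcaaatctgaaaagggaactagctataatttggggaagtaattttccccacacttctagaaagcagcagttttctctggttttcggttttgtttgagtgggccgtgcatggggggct
Amn (amnionless, a partner of the vitamin B12 uptake receptor; chr12:111270846-111271145, plus strand): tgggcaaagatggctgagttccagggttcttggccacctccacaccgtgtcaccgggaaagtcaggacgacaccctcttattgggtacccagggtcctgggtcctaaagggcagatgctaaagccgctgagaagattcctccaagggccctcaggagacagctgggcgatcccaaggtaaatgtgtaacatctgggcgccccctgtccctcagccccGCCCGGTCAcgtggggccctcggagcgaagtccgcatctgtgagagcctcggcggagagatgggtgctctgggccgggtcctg
Nlrp1b (an inflammasome sensor; chr11:71230684-71230983, minus strand): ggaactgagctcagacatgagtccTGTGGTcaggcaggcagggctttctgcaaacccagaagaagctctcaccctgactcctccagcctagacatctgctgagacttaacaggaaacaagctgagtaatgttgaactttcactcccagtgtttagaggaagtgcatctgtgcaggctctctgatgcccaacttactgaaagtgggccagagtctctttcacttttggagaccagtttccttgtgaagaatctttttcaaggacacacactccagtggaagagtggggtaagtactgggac
Kcns1 (a modifier subunit of voltage-gated potassium channels; chr2:164171064-164171363, minus strand): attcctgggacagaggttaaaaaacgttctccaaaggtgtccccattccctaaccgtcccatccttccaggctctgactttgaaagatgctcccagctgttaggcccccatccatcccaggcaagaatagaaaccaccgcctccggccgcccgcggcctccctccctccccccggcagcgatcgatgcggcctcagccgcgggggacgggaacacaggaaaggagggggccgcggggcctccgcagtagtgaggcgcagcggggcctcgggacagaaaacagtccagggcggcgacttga
Ccr1 (a receptor for inflammatory chemokines; chr9:123968643-123968942, minus strand): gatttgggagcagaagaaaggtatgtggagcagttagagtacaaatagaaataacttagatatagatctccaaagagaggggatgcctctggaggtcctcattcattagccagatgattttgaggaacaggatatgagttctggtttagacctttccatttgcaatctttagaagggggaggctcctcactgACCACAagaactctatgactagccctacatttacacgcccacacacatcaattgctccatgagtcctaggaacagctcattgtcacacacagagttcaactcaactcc

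Most start windows touched by a WT-only region were poor in CpG. Their median was 4 CpG per window and 49% G and C, against 22 and 62% in the 13531 windows of regions called in all 6 lists and 7 and 53% in all 31396 autosomal windows. Of the windows printed above, Kcns1 with 22 and Amn with 15 CpG were the rich ones, and Psap, Ccr1 and Nlrp1b held 3, 1 and 0. The RUNX letters stood in 14 of the 45 windows (31.1%), against 12.2% of windows of regions in all 6 lists and 16.7% of all windows. The AP-1 letters stood in 7 (15.6%, against 5.1% and 7.8%) and the antioxidant response element core in 7 (15.6%, against 14.4% and 12.5%). The GATA letters stood in 4 (8.9%, against 5.6% and 11.2%) and the ETS letters in 2 (4.4%, against 27.4% and 15.1%). These are counts of letters in 45 windows, with no test. A match is not a bound site.

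The tag counts of the printed windows' regions differed between the WT libraries. Over the internal Psap start the normalized tag count, scaled by the authors to 10000000 tags per library, was 20.4, 21.6 and 16.5 in WT replicates 1, 2 and 3. Over the Amn start it was 24.5, 19.6 and 8.26, and over the Kcns1 start 17.7, 9.82 and 10.9. The smaller regions over the Nlrp1b start (14.3, 12.5 and 14.6) and the Ccr1 start (11.7, 13.1 and 10.5) were the more even ones. RNA of Ccr1 was 6.7, 1.8 and 11 normalized counts in the cKO-labelled libraries and 13.9, 6.4 and 30.2 in the WT libraries, with overlapping groups (log2 change -1.25, SE 0.891, limma adjusted p = 0.611). Psap RNA had a log2 change of 0.29 (SE 0.165, adjusted p = 0.505), and Amn and Kcns1 stayed below the minimum mean of 10 normalized counts. Of 13 tested genes with such a window, 0 passed the adjusted p of 0.05 in limma, against 0.205% of all 18074 genes tested, and 1 had an unadjusted p under 0.05.

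The ATAC libraries held 13149952 to 18327127 tags, and the RNA libraries totals of 6431081 to 7372007 normalized counts. Peak lists held 54133, 64289 and 56148 peaks in the cKO-labelled libraries and 75017, 60069 and 64585 in the WT libraries (two-sided exact permutation test, p = 0.2, where 0.1 is the smallest possible). WT replicate 2 stood apart, with 25.22% of its tags in peaks against 34.87% to 38.28% in the other 5. RNA of the Y-linked gene Ddx3y was listed at 0 in every cKO-labelled library and at 140.5, 123.4 and 131.7 in the WT libraries, while Xist was at 4331.3 to 7069.1 and 3173.6 to 4046.9. In the RNA, genotype and the sex of the mice therefore cannot be told apart, and sex chromosomes are outside the regions described. In such bulk samples fewer cells of a type and less RNA per cell cannot be told apart either. Summed RNA of 10 T cell markers was 20495.6 to 26824 in the cKO-labelled and 23548.6 to 24800.7 in the WT libraries. Summed RNA of 18 macrophage, monocyte and dendritic cell markers, 11 of them above the minimum mean, was 1122.4 to 1159.2 and 1196.3 to 1348.5, without overlap. None of these 18 genes held a WT-only region, and the part of such cells in the results was not tested.

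WT-only regions made up 2.47% of 112191 autosomal regions and cKO-only regions 0.275%. The rule fixes these calls, so they are a description. Just outside it were 3763 regions called in all 3 WT lists and in 1 cKO-labelled list. Their median tag counts were 8.37 in that cKO-labelled library and 11.97 in the WT libraries, against 10.5 in WT for WT-only regions. A further 5604 regions were called in 2 WT lists and no cKO-labelled list, with a median of 9.12, and 22329 in 1 WT list alone, with 7.93.

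The excess of WT-only over cKO-only regions was smaller among higher-scoring peaks. The peak caller's own score for WT-only regions had a median of 13, 15 and 13.5 in WT replicates 1, 2 and 3, where the lowest scores in the lists were 10, 13 and 11 and the medians of regions in all 6 lists 15.5, 17 and 16.5. Scores under 2 times the lowest were common everywhere: 93.4%, 99.2% and 97.4% of WT-only regions had one, 65.9%, 84.3% and 69.9% of regions in all 6 lists, and 82%, 90.7% and 82.6% of all peaks of these lists. Taking from each list its best-scoring peaks, as many as the shortest list holds, left 1926 WT-only and 501 cKO-only regions, and 50% of that number left 1006 and 805. With only peaks scoring at least 2 times the lowest of their list, which leaves out most of every WT list, there were 356 and 348. Of the 2772 regions, 1677 were still met by a WT-only region at the first of these selections, 191 at the second and 4 at the third. Nearly all regions called WT-only at the highest scores are thus other regions than those described here.

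**Figure D1:**
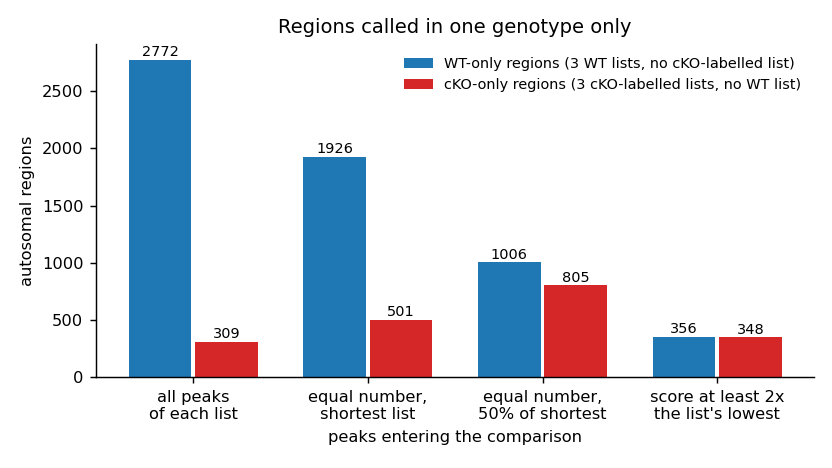
Autosomal regions called in 1 genotype only (y axis) under 4 selections of peaks (x axis), WT-only in blue and cKO-only in red. The counts run from 2772 and 309 with all peaks to 356 and 348 with peaks scoring at least 2 times the lowest of their list.

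WT-only regions were shorter and lower than regions called in all 6 lists. Their median length was 697 bp (503 to 3005 bp), 2404 (86.7%) were under 1 kb and 19 over 2 kb, against a median of 919 bp for cKO-only regions 1502 bp for regions in all 6 lists and 688 bp for all autosomal regions. The median of the mean WT tag count was 10.5 (quartiles 9.2 and 12.4), against 9.4 for cKO-only regions in the cKO-labelled libraries, 37.2 for regions in all 6 lists and 11.9 for all autosomal regions. By library the lowest, median and highest tag counts were 5.28, 10.9 and 175.9 in WT replicate 1, 5.73, 9.0 and 97.7 in WT replicate 2, and 6.38, 10.9 and 149.1 in WT replicate 3. Those medians lay above 34.2%, 25.9% and 27% of the autosomal peaks of the same lists. Tag counts sum over a peak and so grow with its length (Spearman's rank correlation 0.51 across the 2772 regions).

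**Figure D2:**
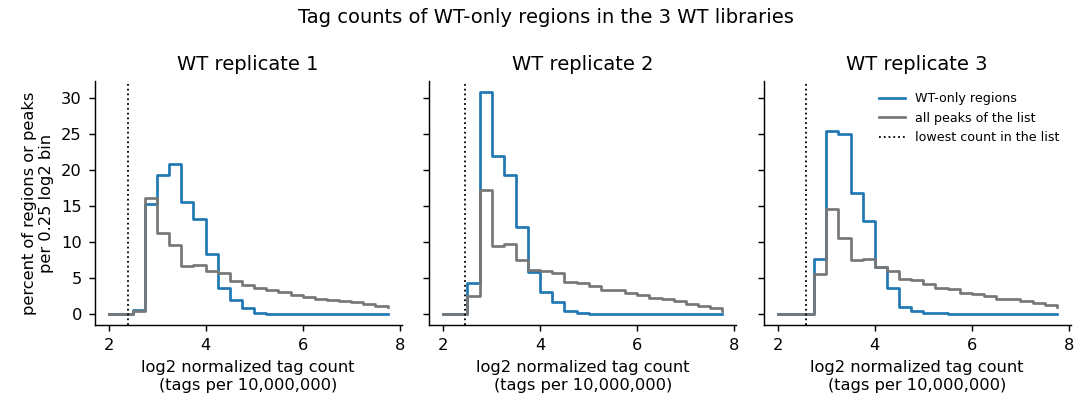
Distribution of normalized tag counts (log2, x axis) as percent per bin of 0.25 (y axis) in the 3 WT lists, for WT-only regions in blue and all autosomal peaks of the list in grey, with the lowest count of the list dotted. WT-only regions gather in the low part of each list, with medians of 10.9, 9.0 and 10.9.

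Within the WT group, the order of these regions was loose. The SD over the 3 WT libraries had a median of 20.8% of the mean, from 0.4% to 92.2%. Spearman's rank correlation of tag counts between pairs of WT libraries was 0.24 to 0.31 across the 2772 regions and 0.93 to 0.94 across the 32845 regions in all 6 lists, which span a far wider range of counts. WT replicate 2 had the lowest count in 1625 regions and the highest in 408. The region across the downstream end of Atg4d, a protease of autophagy, had 39.3 tags in WT replicate 1, 7.09 in replicate 2 and 10.9 in replicate 3. Near the threshold, then, the rank of a region in 1 library said little about its rank in another.

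The 3 tallest regions stood far above the rest in every WT library. The first, of 509 bp at chr1:100179988-100180497 inside Cntnap5b, a neuronal adhesion gene, had 175.9, 97.7 and 149.1 tags (141 ± 39.7, SD, n = 3). The next, at chr18:85697684-85698481, 17450 bp from the predicted gene Gm7612, had 93.6, 65.7 and 87.9 tags. The third, at chr1:102628000-102628522, lay 131457 bp from the nearest annotated gene and had 73.2, 45.8 and 60.4 tags. No cKO-labelled peak lay within 64174, 76103 and 214900 bp of them, while the median distance from a WT-only region to a cKO-labelled peak was 5.45 kb. Their clonal ratios, the authors' measure comparing observed with expected tag positions, were 1.70 to 1.98 in the WT lists. The median over all 8331 peaks of WT-only regions was 0.99. The tallest cKO-only region had a mean of 22.3 tags. Cntnap5b RNA was low, at 9.2, 18.6 and 23.6 normalized counts in the cKO-labelled libraries and 5.0, 3.8 and 20.1 in the WT libraries (log2 change 1.0, limma adjusted p = 0.659).

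The tall regions that followed lay inside or beside genes of varied function, or further from genes. The next pair had clonal ratios near 1. At chr10:128619688-128622655, a region of 2967 bp, 1874 bp from the ribosomal protein gene Rps26, had 52.5, 22.6 and 43.2 tags. At chr4:136047245-136049326, 28 bp from the ribosomal protein gene Rpl11, the counts were 29.8, 21.0 and 39.8. Others lay in Vav3, a guanine nucleotide exchange factor in immune receptor signalling (27.9 ± 11.3), in Senp6, a SUMO protease (27.5 ± 11.5), in Tnrc6a, a partner of Argonaute in microRNA silencing (27.4 ± 5.44), in Got1, the cytosolic aspartate aminotransferase (25.5 ± 5.07), in Elf1, an ETS family factor of lymphocytes (24.2 ± 2.65), and in Pola2, a subunit of the DNA polymerase that primes replication (24.2 ± 2.61). Of all WT-only regions 52 had a mean above 20 tags (1.88%), against 4 cKO-only regions in the cKO-labelled libraries (1.29%).

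Away from start sites, WT-only regions were spread through and between genes. Of the 2772, 1756 (63.35%) overlapped a gene, against 83.17% of cKO-only regions, 78.4% of regions in all 6 lists and 71.19% of all autosomal regions. Those more than 10 kb from any gene were 520 (18.76%), against 8.09%, 9.21% and 12.95%. Within 1 kb of either end of a protein-coding gene lay 123 (4.44%, exact 95% binomial interval 3.7% to 5.27%), against 18.77%, 35.35% and 16.38%. Among regions of all 3 WT lists this share was 5.87% where 1 cKO-labelled list also had a peak, 8.27% with 2 and 35.35% with all 3. Regions of 2 WT lists alone (6.82%) and of 1 WT list alone (6.61%) lay nearer the WT-only value than did regions of 2 (12.85%) or 1 (8.15%) cKO-labelled list alone. Height and length differ between these classes too, and their part in the shares was not tested.

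At the gene ends themselves, WT-only regions from all peaks lay at the downstream end more often than at the start. Strand was known for 16457 of 20665 autosomal protein-coding genes (79.6%). Beside 1 end of such a gene lay 98 WT-only regions, 71 at the downstream end and 27 at the start, so 72.4% were downstream (exact 95% binomial interval 62.5% to 81%). The share was 45% for cKO-only regions, 12.4% for regions in all 6 lists and 31.3% for all regions, but 68.6% for regions of 1 WT list alone and 67.3% for those of 1 cKO-labelled list alone. This share depends on the peaks and the distance: it was 27.6% (8 regions downstream) with peaks scoring at least 2 times the lowest of their list, and 52.2% within 5 kb, against 42.6% for all regions. As a part of each class, downstream ends held 2.68% of WT-only regions, 3.29% of regions in all 6 lists and 3.92% of all regions, and starts held 1.02%, 23.33% and 8.6%. Starts also held few regions of 3 WT lists and 1 cKO-labelled list (1.88%) and of 2 WT lists alone (1.83%). They held 1.69% of regions of 1 WT list alone and 2.06% of those of 1 cKO-labelled list alone. For cKO-only regions the shares were 5.94% downstream and 7.26% at starts, so WT-only regions had the lower share at both kinds of end, and the gap was wider at starts. This split was looked at after seeing that the tall regions near Rpl11 and Bzw1 lay past the ends of those genes.

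**Figure D3:**
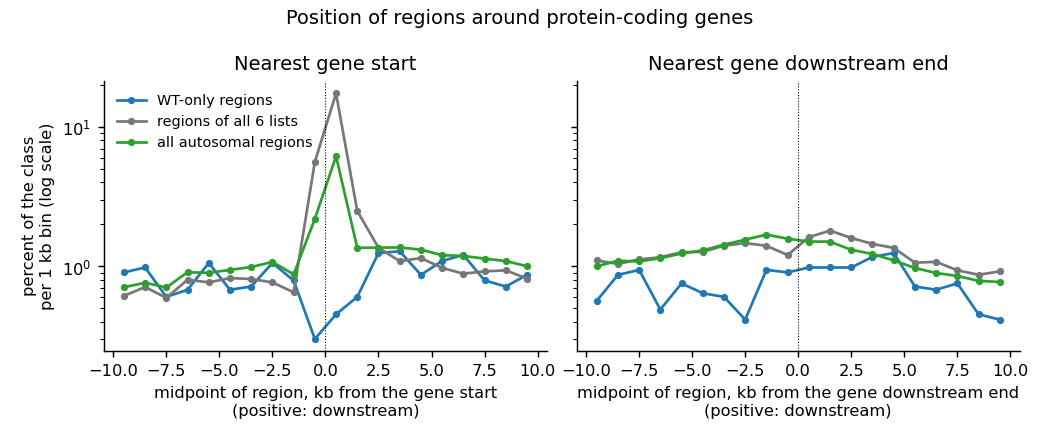
Percent of each class of regions per 1 kb bin (y axis, log scale) by the distance of the region's midpoint from the nearest start (left) or downstream end (right) of a protein-coding gene (x axis, kb), for WT-only regions, regions in all 6 lists and all autosomal regions. Within 1 kb of a start the WT-only line dips to 0.302% and 0.454% per bin where the others peak, and at downstream ends it has no such dip, at 0.907% and 0.983%.

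Among the 71 regions at downstream ends, 40 had their midpoint past the end of the gene. The tallest, after the one near Rpl11, lay 56 bp from the end of Bzw1, a regulator of translation (chr1:58407410-58409557; 20.4, 22.9 and 32.3 tags). The region beside Ccl1, the chemokine that signals through the receptor CCR8, lay 347 bp past the gene (chr11:82174614-82176319). It had 24.5, 11.2 and 8.26 tags, so it was tallest in WT replicate 1 and close to the lowest calls in WT replicate 3. The region beside Gstp1, a glutathione transferase among NRF2 targets, lay 177 bp past the gene (chr19:4034328-4035234; 16.2, 10.4 and 20.7 tags). A region at the end of Abcc4, an efflux pump (chr14:118482360-118483362), had 17.7, 8.73 and 11.3 tags. Not counted among the 71 was a region 546 bp from the higher-coordinate end of Myc, the growth-promoting factor (chr15:61990907-61992669). That region had 24.5, 17.5 and 15.4 tags.

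WT-only regions were found on every autosome. They were from 1.66% (chromosome 17, 85 regions) and 1.84% (chromosome 11, 155 regions) to 3.63% (chromosome 13, 170 regions) and 3.79% (chromosome 18, 127 regions) of the regions of a chromosome, while cKO-only regions were 0.115% to 0.381%. The median distance to the next WT-only region was 156.6 kb, and 185 (6.7%) had another within 10 kb. They fell into 1311 windows of 1 Mb, 556 of which held exactly 1. The fullest windows, chosen after their counts were seen, held 9 or 8. On chromosome 9, from 123000001 to 124000000, lay 9 regions with mean counts of 7.7 to 14.2 tags, among them those in Ccr1, Sacm1l, a phosphoinositide phosphatase, Fyco1, an adaptor of autophagosome transport, and Cdcp1, a transmembrane protein. This stretch also carries the chemokine receptor genes Cxcr6, Ccr9 and Xcr1. Of its 19 tested genes 13 had lower RNA values in the cKO-labelled libraries, where 45% of all tested genes did, with a median log2 change of -0.44, and 0 passed in limma. The other full windows lay on chromosome 10 at Btg1 and part of Eea1 (9), on chromosome 15 at Myc (8), and on chromosome 7 at Fah, Abhd17c and Zfand6 (8), where 0 of 2, 0 of 2 and 0 of 6 tested genes passed. There no tested gene had a lower value, and the median log2 changes were 0.26, 1.22 and 0.11, so the dense windows did not share a direction.

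RNA is a readout that the choice of regions did not use, from libraries separate from the ATAC libraries. A gene was taken to hold a region that overlapped it or lay within 1 kb of an end, which linked 1829 regions to 1718 genes and 943 regions to none. By this link 1344 of 20665 autosomal protein-coding genes (6.5%) held a WT-only region, and 231 genes held at least 2. Of the 1327 rows of the RNA table for such genes, 1185 had a mean of at least 10 normalized counts and were tested within the fit over all 18074 genes. Among them 3 genes passed the adjusted p of 0.05, Ccl1, Lockd and Hnrnpm, all lower in the cKO-labelled libraries. That is 0.253%, against 0.205% of all genes tested (0.172% lower and 0.0332% higher), a share near the background.

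The rest of the holding genes did not lean lower. Their median log2 change was 0.09 (quartiles -0.16 and 0.33), against 0.06 for all tested genes, and 476 (40.2%) were negative, against 45%. At an unadjusted p under 0.05 were 43 lower (3.63%) and 95 higher (8.02%), against 6.05% and 6.05% of all genes. Values of the groups did not overlap in 94 lower (7.93%) and 90 higher genes (7.59%), against 9.76% and 7.4%. In the authors' deposited table, 14 of 797 (1.76%) were lower and 15 (1.88%) higher at their adjusted p of 0.05, against 3.9% and 1.78% of all 9263 genes with one. Genes holding 2 or more regions had a median of 0.14 over 187 tested genes, of which 0 passed in limma and 20 had an unadjusted p under 0.05, 7 lower and 13 higher.

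Genes holding a WT-only region were long. Their spans had a median of 85.5 kb, and those of all tested genes 20.1 kb. With tested genes split into 5 equal groups by span, 0.7% of the shortest group held a WT-only region and 22.7% of the longest, and log2 changes moved with span too. In the longest group the median log2 change was 0.15 for the 720 holding genes and 0.15 for the others. In the shortest it was -0.25 for 21 holding genes and -0.03 for the others. In the groups between, from short to long, it was -0.04, 0.02 and 0.05 for holding genes and -0.02, 0.04 and 0.10 for the others. At like span, then, the medians lay within 0.05 of each other, except among the shortest genes.

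Genes with the region at their downstream end had RNA values that were more often lower without overlap. Of 59 such rows 54 were tested, and 11 (20.4%) were lower in every cKO-labelled than in any WT library, against 9.76% of all genes tested, while 0 were higher in that way, against 7.4%. Among genes with a region of all 6 lists at that end the shares were 12.3% and 10.9%. The median log2 change was -0.04 with 28 of 54 negative, 1 gene (Ccl1) passed in limma, and in the authors' deposited table, of 39 genes with an adjusted p, 5 were lower (Ccl1, Rpl11, Fen1, Smdt1 and Uqcr11) and 0 higher, against 3.9% and 1.78% of all genes there. Rpl11 RNA was 5879.6, 7963.5 and 6395.2 normalized counts in the cKO-labelled libraries and 9774.8, 9341.8 and 10613.5 in the WT libraries, without overlap (log2 change -0.56, SE 0.137, limma adjusted p = 0.112). Reads of ribosomal protein genes can be split with their pseudogenes, so this value is uncertain. Fen1, a flap endonuclease of DNA replication, had 378.0 ± 75.6 and 686.9 ± 176.2 (-0.84, adjusted p = 0.156). Uqcr11, a subunit of respiratory complex III, had 479.9 ± 11.6 and 756.3 ± 137.2 (-0.64, 0.173), and Smdt1, a subunit of the mitochondrial calcium uniporter, 809.5 ± 126.0 and 1185.3 ± 46.5 (-0.56, 0.183; SD, n = 3 each). Gstp1 had 522.2, 564.8 and 581.4 against 604.3, 665.8 and 717.3 (-0.25, 0.594), with reads that could be shared with its near-identical neighbour Gstp2. At starts, 0 of 15 tested genes were lower without overlap, and 2 were higher. The lists of genes at each end are small and were formed after values were seen, and the difference between ends was not tested.

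**Figure D4:**
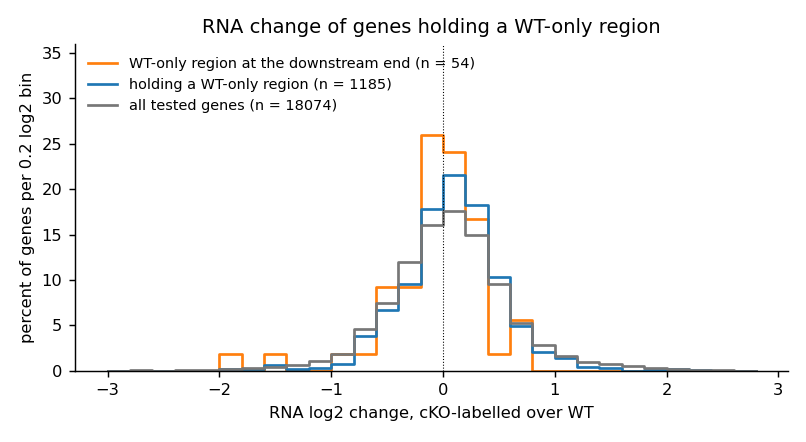
Percent of genes per bin of 0.2 (y axis) by RNA log2 change, cKO-labelled over WT (x axis), for 54 genes with a WT-only region at the downstream end, all 1185 tested genes holding a WT-only region and all 18074 tested genes. The 3 distributions share their centre near 0, with medians of -0.04, 0.09 and 0.06.

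The genes that fell are a chemokine, a long noncoding RNA and a splicing factor. Ccl1 RNA was 102.7, 175.4 and 191.9 normalized counts in the cKO-labelled libraries and 423.3, 603.7 and 379.5 in the WT libraries, 3.02-fold lower (log2 change -1.60, SE 0.278, limma adjusted p = 0.0438). Lockd, a noncoding RNA transcribed downstream of the cell cycle inhibitor gene Cdkn1b, had 203.4, 314.1 and 163.7 against 561.3, 611.7 and 725.1, 2.87-fold lower (-1.52, SE 0.247, adjusted p = 0.0421). Hnrnpm, which binds RNA and steers splicing, had 2805.3, 3573.4 and 2801.9 against 4935.2, 5070.8 and 5891.9, 1.74-fold lower (-0.80, SE 0.144, adjusted p = 0.0499). In none of them did the groups overlap, and in the authors' deposited table their adjusted p-values were 1.78e-05, 1.1e-05 and 0.000403. The region in Lockd (chr6:134932380-134933328) had 15.1, 7.09 and 15.4 tags and that in Hnrnpm (chr17:33656758-33657331) 8.3, 7.37 and 9.76, so the first stood at the upper quartile of WT-only regions and the second below the lower one. The calls were close to the threshold. With any 1 of WT replicate 2, WT replicate 3, cKO replicate 1 and cKO replicate 3 left out, 0 holding genes passed. Over all genes tested, 1 to 5 passed in these settings. Without cKO replicate 2, 10 holding genes passed (0.844%), against 0.83% of all genes tested. Rescaling by weighted trimmed means also left 0 holding genes, where 7 of all genes tested passed (0.0387%). The limma adjusted p-values were then 0.0555 for Ccl1, 0.0516 for Lockd and 0.0627 for Hnrnpm.

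**Figure D5:**
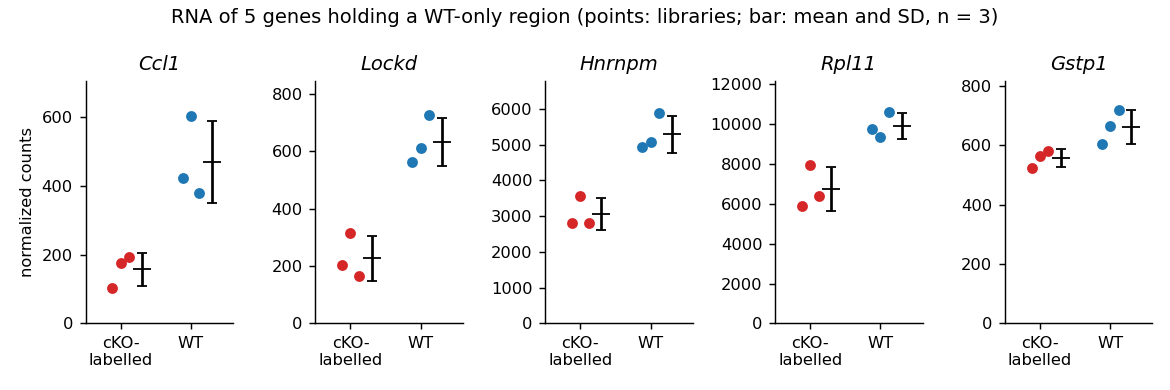
RNA of 5 genes holding a WT-only region (y axis, normalized counts from 0) in 3 cKO-labelled libraries in red and 3 WT libraries in blue, with mean and SD beside the points. Only genes in which all cKO-labelled points lie below all WT points are shown. Among 1185 tested holding genes 94 were lower (7.93%) and 90 higher (7.59%) without overlap, against 9.76% and 7.4% of all genes. Gstp1 and Rpl11 did not pass the limma test.

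The next smallest p-values among holding genes with a mean of at least 50 went both ways and did not pass. Rpl11, described above, and the uncharacterized A430093F15Rik (log2 change -0.73, limma adjusted p = 0.0945) had lower values. Axl, a receptor tyrosine kinase that senses dying cells, was at 3015, 2530.7 and 3506.3 in the cKO-labelled libraries and 2090.3, 1611.9 and 1805.1 in the WT libraries (log2 change 0.71, SE 0.162, limma adjusted p = 0.0945). Serinc5, a membrane protein that limits retroviral infectivity, had a log2 change of 1.00 (adjusted p = 0.114), Usp22, a deubiquitinase of the SAGA complex, 0.98 (0.117), and Tex15, a gene of germ cell meiosis, 1.09 (0.114). Plekhb2, a phosphoinositide-binding membrane protein, had 0.72 (0.112). Acsl5, a long-chain acyl-CoA synthetase holding 2 WT-only regions, was at 1226, 959.4 and 1082.7 against 1535.5, 2030.1 and 1680.2 (-0.68, SE 0.165, adjusted p = 0.112). In Axl, Serinc5, Usp22, Tex15, Plekhb2 and Acsl5 the groups did not overlap, which the choice by small p-values makes likely. Over all genes tested 9.76% were lower and 7.4% higher without overlap. In Axl, Serinc5, Usp22, Tex15 and Plekhb2 the cKO-labelled RNA libraries had the higher values. The nearest cKO-labelled ATAC peak lay 235 bp from the Axl region and 564 bp from the Plekhb2 region. For the regions in Tex15, Usp22 and Serinc5 it lay 1884, 7811 and 9340 bp away.

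Genes with most WT-only regions were long, and none of them passed. Sugct, a glutarate CoA-transferase of 837 kb, held 6, with mean counts of 7.76 to 15.9 tags, and its RNA was low (log2 change -0.15, limma adjusted p = 0.949). Fars2 (a mitochondrial phenylalanyl-tRNA synthetase), Inpp4b (a phosphoinositide phosphatase), Kcnq5 (a potassium channel) and Foxp1 (a factor that keeps T cells quiescent) held 5 each. Foxp1 RNA was 2086.9, 1628 and 2359.6 in the cKO-labelled libraries and 2135.2, 1870 and 1890.8 in the WT libraries, with overlap (0.03, adjusted p = 0.962). In Inpp4b the tallest region (chr8:82025766-82027141; 22.3, 12.3 and 29.3 tags) was low in WT replicate 2.

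Th2 genes held almost none of these regions. Of 31 genes of the Th2 list, which includes Il4, Il5, Il13, Gata3 and Il1rl1, only Ccl1 held a WT-only region, while 24 held a region of all 6 lists. In RNA 1 of the 25 tested genes of the list, Ccl1, was lower and 0 were higher, and the median log2 change was 0.09. Of 35 NRF2 targets and partners, Gstp1 and Abcc4 held one, and 33 held a region of all 6 lists. In RNA 2 of the 29 tested genes of this list were lower, Prdx1 and Txn1, which hold no WT-only region, and 1 was higher, Nfe2l2 itself, against 0.172% and 0.0332% of all genes tested, with a median log2 change of -0.18. The Abcc4 gene held 3, with RNA of 157.3 ± 26.9 and 146.5 ± 52.4 (log2 change 0.16, adjusted p = 0.878 in limma). Across all autosomal protein-coding genes 6.5% held a WT-only region, so in holding such regions both lists lay near or below the background.

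Most genes of T cell signalling held no such region. Of 34 genes of the T cell receptor, costimulation and checkpoints, 4 held one: the costimulatory receptors Cd28 and Cd226, the activation marker Cd69 and the adhesion receptor Cd44, the last with 2. The Cd28 region (chr1:60757969-60758727) had 15.9, 9.82 and 10.5 tags and lay 935 bp from a cKO-labelled peak. Cd28 RNA overlapped between groups (log2 change 0.30, limma adjusted p = 0.581), as did Cd69 (-0.04, 0.944), Cd44 (0.15, 0.738) and Cd226 (0.00, 0.999). Of 26 cytokine receptor and signalling genes 3 held one: Il7r, which takes up the survival signal of interleukin 7, Il1r1 and the kinase gene Jak2. Of 22 homing and adhesion genes 2 held one, among them the integrin gene Itgav (14.3, 9.28 and 11.3 tags). In each of these lists the share was above the 6.5% of all autosomal protein-coding genes. The part of gene length in these shares was not tested. None of the genes named here passed in RNA.

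Of 44 transcription factor genes of T cells, 8 held a WT-only region, against 6.5% of all autosomal protein-coding genes, and 43 a region of all 6 lists. The part of gene length in this count was not tested. In RNA 0 of 43 tested were lower and 1, Jun, was higher, against 0.172% and 0.0332% of all genes tested. The 8 were Bach2, which restrains effector differentiation, Foxo1 and Tox, Ikzf1, the nuclear receptor gene Rora, the calcineurin-responsive Nfatc1, and the NF-kappaB subunit genes Nfkb1 and Rel. A region of 1102 bp in Bach2 (chr4:32501707-32502809) had 12.5, 15.3 and 14.6 tags and was among the even ones. The region in Ikzf1 (chr11:11701949-11703516) rested on WT replicate 1, with 22.6, 8.18 and 7.88 tags. Nfatc1 RNA was 1998.9, 1261.4 and 2163.3 in the cKO-labelled libraries and 1466.2, 932.3 and 937.2 in the WT libraries, with overlap (log2 change 0.70, SE 0.229, limma adjusted p = 0.24). Of 34 neuronal adhesion and synapse genes, a list of very long genes, 8 held one, among them Cntnap5b, Dlg2 and Lsamp, and 10 held a region of all 6 lists. Of the marker lists of other cell types, B cell markers held 1 (Ebf1), epithelial and stromal markers 1 (Cdh5), and those of plasma cells, neutrophils, erythroid cells, granulocytes and cytotoxic lymphocytes 0.

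Open regions shared by all libraries had a somewhat lower median change near WT-only regions than over the whole class. The 1751 regions of all 6 lists within 10 kb of a WT-only region had a median log2 change of -0.27 in tag count, against -0.15 for all 32845. After quantile normalization the medians were -0.06 and 0.02. For the 235 regions of all 6 lists within 10 kb of a cKO-only region the median was 0 without scaling and 0.11 after quantile normalization. These come from the same contrast that chose the WT-only regions, so they are a description with no test. Of the WT-only regions themselves, 1254 (45.24%) lay within 10 kb of a region of all 6 lists and 300 (10.82%) within 1 kb of a cKO-labelled peak.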

How the data were processed

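RNA-seq and ATAC-seq were measured in 3 cKO-labelled and 3 WT libraries each. The submitters' processing notes name the build mm10 and, with no role, HOMER 4.11, Bowtie2 2.3.5.1, RSEM 1.3.3, STAR, edgeR and DESeq2. Each ATAC library has a deposited HOMER peak list. Its tag count per peak is a signal that the authors scaled to 10000000 tags, and its findPeaks score is a score that they left unscaled. Its clonal value is a ratio (fold) that compares observed with expected tag positions. Per the file headers peaks of 500 bp were found at a Poisson p-value threshold of 0.001, peaks closer than 1000 bp were joined, and at most 1 tag per bp was counted. The deposited RNA table holds the authors' normalized counts per gene (a signal, not whole numbers, so raw depth is unknown), their log2 fold change (cKO over WT) and their p-values.

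Peaks sharing at least 1 bp were merged (Python 3.11.15, pandas 2.3.3, numpy 2.4.6), and the tag count of a region in a library was that of its highest peak. Coordinates are those of the files. Regions were placed on the GRCm38.p6 gene table, which gives gene ends. Start, strand and sequence came from the RefSeq promoter table, used here without chromosome 18. Exons and introns were not analysed. Of the RNA table's rows 83.2% matched the gene table. Genes with a mean of at least 10 entered limma 3.58.1 (R 4.3.3; moderated variances with a trend on expression) as log2(value + 1), with the group as the only term. Calls were made at a Benjamini-Hochberg adjusted p of 0.05 over all 18074 genes, and fold changes on this scale understate those of low genes. The fit was tested on simulated data, where it missed part of the changed genes, so a gene that did not pass may still differ. ATAC values of the regions were not tested, since the calls chose them. Binomial intervals (exact, scipy 1.17.1) cover counting error only. Figures were drawn with matplotlib 3.10.9.

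The regions and gene lists were chosen with earlier results of these data known. Named were the 20 tallest regions (the text prints part of them), those at ends of list genes (1 of these is not reported here), genes past the threshold, the 10 with the smallest p and a mean of at least 50, the 10 or more with most regions, and up to 6 holding members per list. Other names (motifs, dense windows, printed promoters, downstream ends) were chosen after values were seen. Alternatives were other overlaps, peak selections and distances, other pseudocounts, filters, normalizations (quantile, weighted and unweighted trimmed means), variance models and links, the replicate block, each library left out and the authors' own values.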

Additional observations from a re-analysis of the deposited data

How the results depend on the processing

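The calls rest on 3 libraries a group. The number of WT-only regions was 1006 with 50% of the peaks of the shortest list, 356 with scores of at least 2 times the lowest (82% to 90.7% of the peaks of a WT list score less), and 3660 to 5468 with 1 library left out, where the criterion is looser by construction. The share at a protein-coding gene end was 18.29% within 5 kb (all regions 33.05%), 9.38% with all genes (all regions 22.66%), 10.39% at the higher scores, and 4.56% to 5.67% with 1 library left out. The downstream share, an alternative chosen after seeing the data, was 52.2% within 5 kb (all regions 42.6%) and 27.6% at the higher scores, with 66.7% to 71.9% when 1 library was left out.

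Among holding genes, limma called 0 without the variance trend (90 at an unadjusted p under 0.05) and 0 with weighted trimmed mean rescaling (145 unadjusted), but 3 with unweighted trimmed means, which were added after seeing the data. It called 6 with links of up to 10 kb (0.362%) and 5 with the nearest gene within 100 kb (0.345%). For regions staying WT-only with equal peak numbers it called 1 (Hnrnpm, 0.115%). With these links and regions the share of all genes was 0.205%. It was 0.0332% without the variance trend, 0.0387% with weighted trimmed means and 0.238% with unweighted ones. The authors' deposited adjusted p called 29 (3.64%, against 5.68% of all genes), and their log2 changes had a median of 0.017. With 1 library left out, calls ran from 0 to 10 among holding genes and from 1 to 150 over all genes. With the replicate block there were 7, of which 3 were lower, and 122 over all genes against 37. Same-number RNA libraries had correlations of 0.12, 0.21 and -0.06, so the numbers were not taken to pair them. In 7 settings, unweighted trimmed means among them, 2 or 3 genes were called. After quantile normalization the 2 were Ccl1, lower, and Axl, higher. In 18 settings the median stayed between 0.059 and 0.125. Over 16 settings Ccl1 passed in 10, Lockd in 9 and Hnrnpm in 8, and none changed sign. The causes of these shifts were not tested.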
